A study of Homo sapiens with 9 samples.

Results

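The genes described here are the ligands and receptors of the epidermal growth factor (EGF) receptor family that were read by name from the table of gene counts: the 5 ligands AREG (amphiregulin), EREG (epiregulin), HBEGF (heparin-binding EGF-like growth factor), TGFA (transforming growth factor alpha) and BTC (betacellulin), and the 3 receptors EGFR, ERBB2 and ERBB3. These are 8 of the 58735 genes in the table, and each name matched 1 row. RNA sequencing had been done on A549, an established human lung adenocarcinoma line, grown in RPMI 1640 medium. All 9 cultures had been transfected with jetPRIME, a transfection reagent, and they differed in the plasmid. The control group received the PC3.1 plasmid, the LINC00996 group (L996 in the labels) a plasmid for the long non-coding RNA LINC00996, and the AP001189.3 group (RP11 in the labels) a plasmid for the long non-coding RNA AP001189.3, with 3 libraries in each group. The labels of the control libraries read PC3.1, PC3.2 and PC3.3, and they were treated as 3 replicates of 1 plasmid. The promoter that drives each insert and the time from transfection to harvest were not given in the sources used here. The comparisons ask how the messenger RNA (mRNA) of these genes differed between cells with each long non-coding RNA plasmid and cells with the control plasmid, and between the plasmids.

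The ligands of this family are made as membrane-bound precursors, and metalloproteases cut them at the cell surface to release the active growth factor. AREG, EREG, HBEGF, TGFA and BTC all bind EGFR, and BTC, EREG and HBEGF also bind ERBB4. Ligand binding lets the receptors pair and phosphorylate each other, and the RAS-MAPK and PI3K-AKT pathways carry the signal onward. ERBB2 has no known ligand and serves as a partner for the other receptors, and ERBB3 binds neuregulins and has a kinase domain with little activity of its own. In lung epithelium the family is known for its part in repair after injury, and EGFR is a frequent driver and drug target in lung adenocarcinoma.

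The ligand genes AREG, EREG and BTC lie close together on chromosome 4 of GRCh38. EREG (ENSG00000124882) spans chr4:74365143-74388751 on the plus strand, AREG (ENSG00000109321) spans chr4:74445134-74455009 on the plus strand, and BTC (ENSG00000174808) spans chr4:74744759-74794686 on the minus strand. HBEGF (ENSG00000113070) spans chr5:140332843-140346631 on the minus strand and TGFA (ENSG00000163235) chr2:70447280-70554193 on the minus strand. Of the receptors, EGFR (ENSG00000146648) spans chr7:55019021-55211628, ERBB2 (ENSG00000141736) chr17:39687914-39730426 and ERBB3 (ENSG00000065361) chr12:56076799-56103505, all on the plus strand. All 8 are annotated as protein coding. EGFR overlaps the antisense gene EGFR-AS1, ERBB2 overlaps MIEN1 and PGAP3 on the opposite strand and MIR4728 on its own, TGFA overlaps TGFA-IT1 on its own strand and ERBB3 overlaps AC034102.2 on its own strand. Whether reads were counted by strand was not given in the sources used here, so reads of such overlapping genes cannot be told apart.

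RefSeq promoter windows (GRCh38.p14), which run from 250 bases before a transcript start to 50 bases after it, were matched to 7 of the 8 genes, with 9 windows in all. The 250 bases before the start are printed 5′ to 3′ on the gene's own strand for the 3 neighbours on chromosome 4, for HBEGF, the member with the lowest level in the LINC00996 group relative to control, and for the first window of EGFR, the common receptor of the ligands. Capitals mark a match on either strand to a TATA box (TATAAA), a cyclic AMP response element (CRE, TGACGTCA) or a GC box (GGGCGG). These sequences are given as annotated promoter regions, and where the transcripts start in these cells was not measured.
AREG, chr4:74444886-74445135, plus strand: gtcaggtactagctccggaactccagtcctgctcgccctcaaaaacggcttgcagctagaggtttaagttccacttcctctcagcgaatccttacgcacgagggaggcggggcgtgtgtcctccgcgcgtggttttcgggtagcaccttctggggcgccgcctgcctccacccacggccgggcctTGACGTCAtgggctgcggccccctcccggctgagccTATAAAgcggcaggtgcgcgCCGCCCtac
EREG, chr4:74364895-74365144, plus strand: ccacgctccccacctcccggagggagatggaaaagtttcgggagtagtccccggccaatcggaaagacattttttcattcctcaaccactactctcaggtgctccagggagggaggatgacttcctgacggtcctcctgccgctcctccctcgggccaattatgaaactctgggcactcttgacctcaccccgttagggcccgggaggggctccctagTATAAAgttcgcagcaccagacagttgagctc
BTC, chr4:74794524-74794773, minus strand: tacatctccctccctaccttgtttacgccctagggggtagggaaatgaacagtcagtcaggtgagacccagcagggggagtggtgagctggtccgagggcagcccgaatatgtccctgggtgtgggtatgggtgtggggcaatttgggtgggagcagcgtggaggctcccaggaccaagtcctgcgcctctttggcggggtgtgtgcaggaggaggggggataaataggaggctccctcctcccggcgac
HBEGF, chr5:140346604-140346853, minus strand: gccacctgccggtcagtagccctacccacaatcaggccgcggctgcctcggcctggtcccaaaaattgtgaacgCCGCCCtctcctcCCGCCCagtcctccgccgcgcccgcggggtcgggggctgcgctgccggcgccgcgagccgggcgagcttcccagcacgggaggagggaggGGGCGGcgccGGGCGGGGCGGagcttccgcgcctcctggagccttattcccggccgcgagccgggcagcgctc
EGFR, chr7:55018767-55019016, plus strand: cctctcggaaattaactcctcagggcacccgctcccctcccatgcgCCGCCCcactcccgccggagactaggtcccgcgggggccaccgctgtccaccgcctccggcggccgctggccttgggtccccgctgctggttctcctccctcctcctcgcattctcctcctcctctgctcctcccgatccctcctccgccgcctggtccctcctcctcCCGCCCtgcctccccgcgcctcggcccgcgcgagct

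AREG held a CRE at -65 to -58 and a TATA box at -29 to -24, counted from the transcript start, and a GC box at -9 to -4. EREG held a TATA box at -32 to -27. HBEGF held 5 GC boxes, the last pair of which share 1 base, and no TATA box. The printed stretch of BTC held none of these motifs, and its GC box lies after the start, at 22 to 27. Of all 35116 windows of the same length, 11.5% held a TATA box, 1.85% a CRE and 45.0% a GC box. An AP-1 site (TGANTCA) was present in the ERBB2 window and in the second window of EGFR, against 7.71% of all windows. A kappaB-type site, found in 1.40% of all windows, was in none of the 9 windows. The GC content of the 300-base windows was 66.3% for AREG, 57.7% for EREG, 63.0% for BTC, 75.0% for HBEGF and 75.3% for the first EGFR window. A match of letters is a description of the sequence alone.

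The libraries held 15272450 to 18125447 counts each. LINC00996 was counted 4373 to 5952 times in each library of its group and 4 to 9 times in each control library, and AP001189.3 was counted 1660 to 2378 times in its group and 0 to 2 times in each control library, so both match their labels. LINC00996 replicate 1 stood apart from the other replicates of its group: a chi-square of its counts against theirs came to 22.4 and 33.3 per gene, against 2.27 to 7.32 for the other replicate pairs. The rank correlation between a gene's GC content and its deviation in a library was 0.428 in that library, between -0.24 and -0.42 in the other LINC00996 libraries, between -0.277 and -0.00363 in the control libraries and between 0.204 and 0.353 in the AP001189.3 libraries. Mitochondrially encoded genes took 5.26% to 5.66% of counts in the control group, 5.32% to 5.52% in the AP001189.3 group and 6.69% to 7.18% in the LINC00996 group. All 6 epithelial markers were at 1 CPM (the read count scaled to a common library size) or more in each group, and they summed to 8430 to 8520 CPM in the control, 8350 to 11100 CPM in the LINC00996 and 9100 to 9290 CPM in the AP001189.3 libraries. Among them CDH1 was at 318, 171 and 291 CPM in the same order, and KRT19 at 296, 225 and 289 CPM. The other epithelial markers did not follow these. KRT8 was at 3990, 4920 and 4560 CPM and KRT18 at 2210, 2360 and 2370 CPM. KRT7 was at 1640, 1600 and 1690 CPM and EPCAM at 13.3, 16.1 and 13 CPM. Of 8 alveolar type 2 markers, 5 were below 1 CPM in each group, among them the surfactant genes SFTPA1, SFTPB, SFTPC and SFTPD. The summed level of the 8 was 316 to 321 CPM in the control libraries, 153 to 167 CPM in the LINC00996 libraries and 350 to 358 CPM in the AP001189.3 libraries, and the lower sum with LINC00996 came from 1 gene, LAMP3, at 235, 65.3 and 266 CPM. The other alveolar markers above 1 CPM did not follow it, with ABCA3 at 82, 91.1 and 84.8 CPM and NAPSA at 1.44, 2.27 and 2.2 CPM. Of the markers of other cell types, 2 in each list were at 1 CPM or more. These were CD14 (10.4, 12.4 and 10.4 CPM in control, LINC00996 and AP001189.3 cells) and ITGAM (7.15, 5.31 and 7.35 CPM) of leukocytes, PECAM1 (8.11, 3.03 and 4.65 CPM) and CDH5 (4.13, 2.95 and 3.86 CPM) of endothelium, and COL1A1 (20.9, 13.6 and 19.5 CPM) and COL3A1 (2.44, 3.49 and 2.4 CPM) of fibroblasts. Of the others, PTPRC, CD3E, VWF, KDR, PDGFRB and DCN averaged at most 0.185 CPM in each group. The 4 endothelial markers summed to 11.6 to 13.1 CPM in the control, 5.26 to 6.49 CPM in the LINC00996 and 7.28 to 9.57 CPM in the AP001189.3 libraries, the 4 fibroblast markers to 22.4 to 25.6, 16 to 18.2 and 20.8 to 24.3 CPM, and the 5 leukocyte markers to 16.7 to 19.5, 16.3 to 19.2 and 14.1 to 21.3 CPM.

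In LINC00996-transfected cells all 5 ligands and EGFR were lower than in control cells, at 0.433 to 0.735 times the control level, while ERBB2 and ERBB3 did not pass the test. Of the 8 genes, 6 had a Benjamini-Hochberg adjusted p under 0.05 in edgeR's quasi-likelihood test, against 22.3% of the 16097 genes tested, and all 6 were lower, against 11.6% of all genes called lower and 10.7% called higher. The LINC00996 and control libraries did not overlap in 6 of the 8 genes, against 40.4% of all genes. The median log2 fold change was -0.53 over the 5 ligands, -0.34 over the 3 receptors and 0.01 over all genes tested. Bulk RNA cannot tell fewer cells that make a transcript from less transcript per cell. Levels are given as CPM scaled by TMM factors, and fold changes are LINC00996 minus control on the log2 scale.

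HBEGF, a ligand that also binds heparan sulfate, had the lowest ratio to control of the 8 genes. Its level was 11.5, 6.85 and 9.72 CPM in the 3 control libraries and 3.78, 4.25 and 4.17 CPM in the LINC00996 libraries. The lowest control library was above all LINC00996 libraries, and the control libraries were spread more widely, with a coefficient of variation of 25.2% where counting error alone gives 7.95%. The log2 fold change was -1.21 ± 0.203 (SE), or 0.433 times the control level, with an adjusted p of 0.00141. It rests on few reads, 67 to 77 counts in each LINC00996 library.

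EREG, which activates EGFR and ERBB4 and is the ligand with the most counts here, was at 318, 339 and 325 CPM in control cells. In LINC00996 cells it was at 143, 191 and 214 CPM. The groups were well apart, and the lowest value belonged to LINC00996 replicate 1. The log2 fold change was -0.84 ± 0.128 (SE; adjusted p = 0.00079), and -0.69 without that replicate. AREG, a ligand of EGFR alone, was at 56.6, 57.6 and 61.6 CPM in control cells and at 44.9, 37.4 and 42.0 CPM in LINC00996 cells. Here replicate 1 was the highest of its group and still below every control library. The log2 fold change was -0.50 ± 0.105 (SE; adjusted p = 0.00547), and -0.56 without replicate 1.

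TGFA, an EGFR ligand that many epithelial tumours make, was at 39.5, 42.1 and 39.9 CPM in control cells and 27.6, 29.6 and 32.2 CPM in LINC00996 cells. The groups did not overlap, and the log2 fold change was -0.44 ± 0.107 (SE; adjusted p = 0.0114). Its adjusted p rose to 0.075 when control replicate 2 was left out and to 0.0515 without LINC00996 replicate 2. BTC, a ligand of EGFR and ERBB4, was at 16.1, 18.1 and 21.9 CPM in control cells and 11, 13.1 and 14.7 CPM in LINC00996 cells. The nearest libraries of the groups were 14.7 and 16.1 CPM, and the log2 fold change was -0.53 ± 0.157 (SE; adjusted p = 0.0301). BTC was not called without control replicate 2 (adjusted p = 0.0836), control replicate 3 (0.15, log2 fold change -0.40) or LINC00996 replicate 2 (0.0756).

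EGFR, the receptor that all 5 ligands bind, was at 767, 778 and 692 CPM in control cells. In LINC00996 cells it was at 507, 536 and 555 CPM, so that every LINC00996 library was below every control library. The log2 fold change was -0.49 ± 0.0855 (SE), or 0.714 times control, with an adjusted p of 0.00188. With 8448 to 13034 counts per library across all groups, counting error was 0.894% to 1.04% of the EGFR level, and the spread between replicates set the precision.

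ERBB2 and ERBB3 were not called. ERBB2 was at 126, 122 and 113 CPM in control cells and at 148, 121 and 115 CPM in LINC00996 cells, with replicate 1 above all others and the remaining libraries within the control range. The log2 fold change was 0.09, with a 95% interval of -0.15 to 0.33 (adjusted p = 0.598), and -0.03 without LINC00996 replicate 1. ERBB3 was at 13.3, 14.7 and 10.6 CPM in control cells and 11.9, 9.13 and 9.41 CPM in LINC00996 cells. The groups overlapped through control replicate 3, and the log2 fold change was -0.34, with a 95% interval of -0.70 to 0.02 (adjusted p = 0.164). Without LINC00996 replicate 1 it was -0.47 with an adjusted p of 0.0174, and with an offset for GC content -0.37 with an adjusted p of 0.0442.

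**Figure D1:**
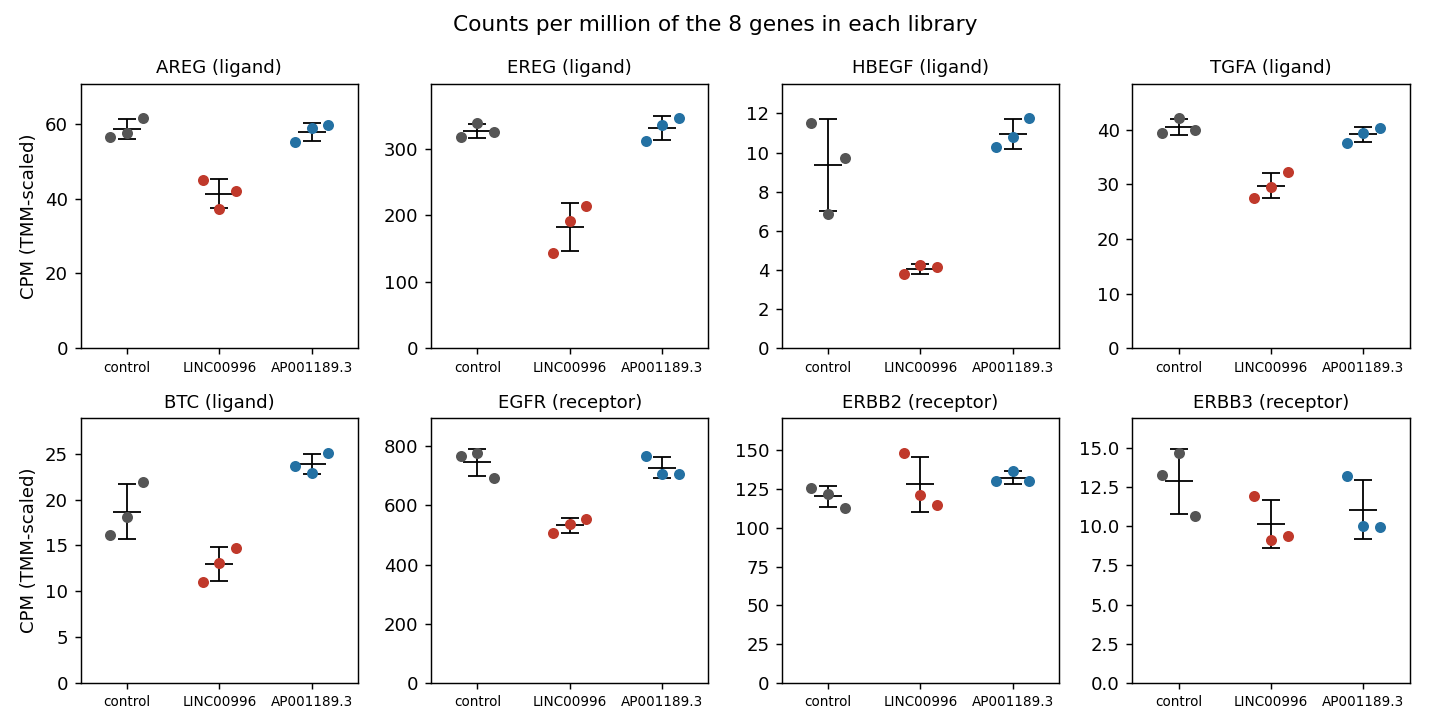
Level of each of the 8 genes in each library, in CPM scaled by TMM factors, with a separate linear axis from 0 for each gene. Points are libraries in the order of their replicate numbers, and bars give the mean and SD of 3 libraries. In AREG, EREG, HBEGF, TGFA, BTC and EGFR the LINC00996 points lie below all control and AP001189.3 points, while the groups overlap in ERBB3 and the LINC00996 points of ERBB2 span 115 to 148 CPM.

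Leaving out LINC00996 replicate 1, the library that stood apart, left the 5 ligands and EGFR called lower, with log2 fold changes of -1.16 for HBEGF, -0.69 for EREG, -0.56 for AREG, -0.45 for EGFR, -0.42 for BTC and -0.39 for TGFA. AREG, EREG, HBEGF and EGFR were called lower under each of 15 other settings, which included another test, other scalings, GC and length offsets and each of the 6 libraries left out. For AREG the adjusted p ran from 4.63e-06 to 0.0392 over those settings, for EREG from 1.22e-12 to 0.00933, for HBEGF from 8.41e-08 to 0.0125 and for EGFR from 6.5e-07 to 0.0231. The higher share of mitochondrially encoded counts in the LINC00996 libraries and their lower levels of LAMP3, of CDH1 and of the summed endothelial and fibroblast markers moved with these differences, and the part of each in them was not tested.

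**Figure D2:**
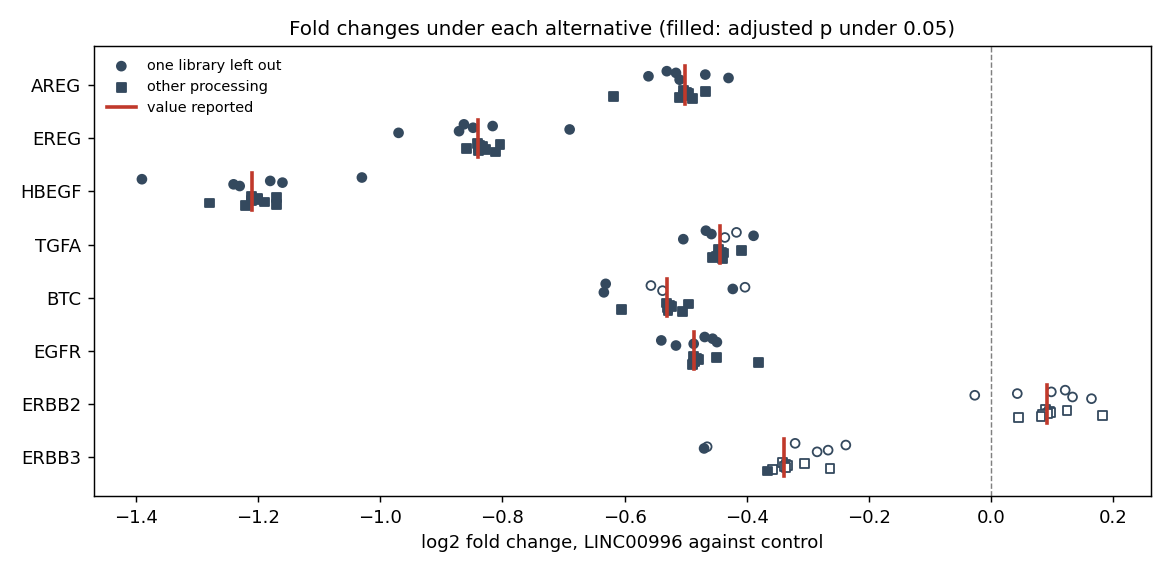
Log2 fold change of each gene in LINC00996 against control under 15 alternatives. Circles leave out 1 library, squares change the test, scaling, filter or another step, red bars mark the value reported, and filled symbols have an adjusted p under 0.05. HBEGF stays between -1.39 and -1.03 and EREG between -0.97 and -0.69, TGFA and BTC have open circles, and ERBB2 lies on either side of 0.

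In AP001189.3-transfected cells BTC was higher than in control cells and none of the other 7 genes passed the test. This is 1 of 8 genes called, against 19.8% of the 16023 genes tested, with 8.49% of all genes called lower and 11.4% called higher. The groups did not overlap in 2 of the 8, BTC and ERBB2, against 35.2% of all genes. The median log2 fold change was 0.02 over the ligands, -0.03 over the receptors and -0.00127 over all genes. These values and those for LINC00996 share the same 3 control libraries and are therefore not independent of each other.

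BTC was at 23.7, 22.9 and 25.1 CPM in AP001189.3 cells, against 16.1, 18.1 and 21.9 CPM in control cells. All AP001189.3 libraries were above the highest control library. The log2 fold change, AP001189.3 minus control, was 0.35 ± 0.106 (SE; adjusted p = 0.0185), or 1.28 times control. The call depended on single libraries and on the fit. The adjusted p was 0.0964 without control replicate 1, 0.0886 without control replicate 2, 0.0896 without AP001189.3 replicate 3, 0.157 with all 9 libraries in 1 fit and 0.0514 with an offset for gene length. The AP001189.3 libraries also differed from the control libraries in their relation to GC content, and with an offset for it BTC had a log2 fold change of 0.45 and an adjusted p of 0.00222.

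ERBB2 was at 131, 137 and 130 CPM in AP001189.3 cells and at 113 to 126 CPM in control cells, without overlap. Its log2 fold change of 0.14 (95% interval 0.02 to 0.26) had an adjusted p of 0.0828. The value fell to 0.02 with the GC offset and rose to 0.19 with the length offset (adjusted p = 0.0178), and it was 0.17 without control replicate 1 (adjusted p = 0.0346). EREG was at 312, 336 and 347 CPM, on both sides of the control libraries, and its log2 fold change of 0.02 had a 95% interval of -0.09 to 0.12. With the GC offset it was 0.15 with an adjusted p of 0.031.

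AREG was at 55.1, 58.8 and 59.6 CPM in AP001189.3 cells, and its log2 fold change of -0.02 had a 95% interval of -0.15 to 0.12. TGFA was at 37.6, 39.5 and 40.4 CPM, a log2 fold change of -0.05 with an interval of -0.20 to 0.10. EGFR was at 768, 707 and 707 CPM, a log2 fold change of -0.03 with an interval of -0.14 to 0.07. HBEGF was at 10.3, 10.8 and 11.8 CPM, with a log2 fold change of 0.22 and a wider interval of -0.09 to 0.53. For these 4 genes, as for EREG and BTC, the intervals leave out the log2 fold changes measured with LINC00996. ERBB3 was at 13.2, 10.01 and 9.94 CPM, a log2 fold change of -0.21 with an interval of -0.50 to 0.07.

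The direct comparison of the plasmids called the 6 genes that were also called in LINC00996 against control. AREG, EREG, HBEGF, TGFA, BTC and EGFR were lower in LINC00996 than in AP001189.3 cells, so that 6 of 8 genes were called lower, against 12.1% of the 16095 genes tested, with 9.38% called higher and 21.4% called in either direction. The groups did not overlap in 6 of the 8, against 39.2% of all genes. The median difference on the log2 scale was -0.86 over the ligands, -0.13 over the receptors and 0.02 over all genes. HBEGF differed by -1.43 ± 0.149 (SE; adjusted p = 5.28e-05) on the log2 scale and BTC by -0.89 ± 0.133 (adjusted p = 0.000755). EREG differed by -0.86 (adjusted p = 0.000863), AREG by -0.49 (0.00575), EGFR by -0.45 (0.00223) and TGFA by -0.40 (0.0198). TGFA was not called when LINC00996 replicate 2 or any 1 of the AP001189.3 libraries was left out, with adjusted p of 0.0631 to 0.104. ERBB2 differed by -0.05 (95% interval -0.28 to 0.17) and ERBB3 by -0.13 (95% interval -0.48 to 0.23), neither of them called. Without LINC00996 replicate 1 ERBB2 differed by -0.17 (adjusted p = 0.0179).

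**Figure D3:**
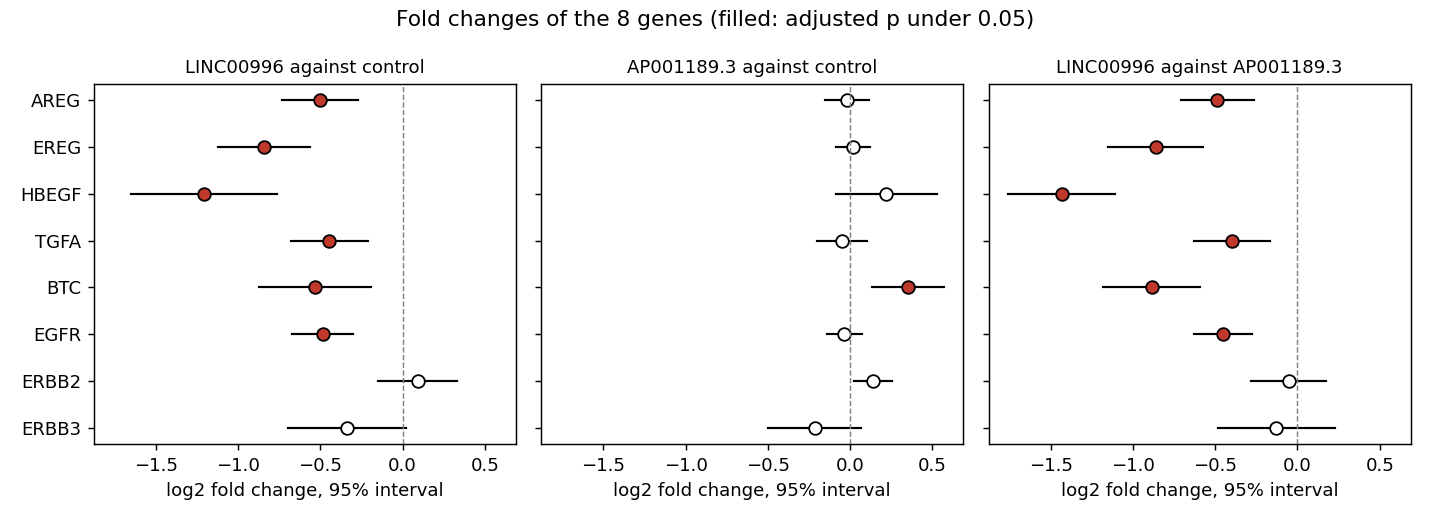
Log2 fold changes of the 8 genes in the 3 comparisons, with 95% intervals. Filled points have an adjusted p under 0.05. The points of the 5 ligands and EGFR lie left of 0 in both comparisons of LINC00996, with HBEGF at -1.21 and -1.43, and in AP001189.3 against control the filled point is that of BTC at 0.35.

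To set the genes beside each other, CPM was divided by the gene length of the table in kilobases (CPM per kb). In control cells EGFR was at 59.5 ± 3.74 (SD, n = 3) CPM per kb and EREG at 57.3 ± 1.85, and their libraries overlapped. AREG followed at 35.6 ± 1.61, ERBB2 at 11.7 ± 0.655, TGFA at 8.16 ± 0.288, BTC at 6.64 ± 1.05, HBEGF at 3.10 ± 0.782 and ERBB3 at 1.42 ± 0.227. No other neighbours in this order overlapped. In LINC00996 cells the order was kept, but the gaps differed: EGFR at 42.5 ± 1.96 was above every EREG library (32.0 ± 6.35), the EREG libraries overlapped those of AREG (25.1 ± 2.30), and HBEGF at 1.35 ± 0.0834 overlapped ERBB3 at 1.12 ± 0.171. In AP001189.3 cells EGFR at 58.1 ± 2.83 and EREG at 58.0 ± 3.11 overlapped, and BTC at 8.48 ± 0.395 ranked above TGFA at 7.89 ± 0.280, with the lowest BTC library at 8.127 and the highest TGFA library at 8.131. The order in each group was the same with library size alone and with the FPKM values of the authors.

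**Figure D4:**
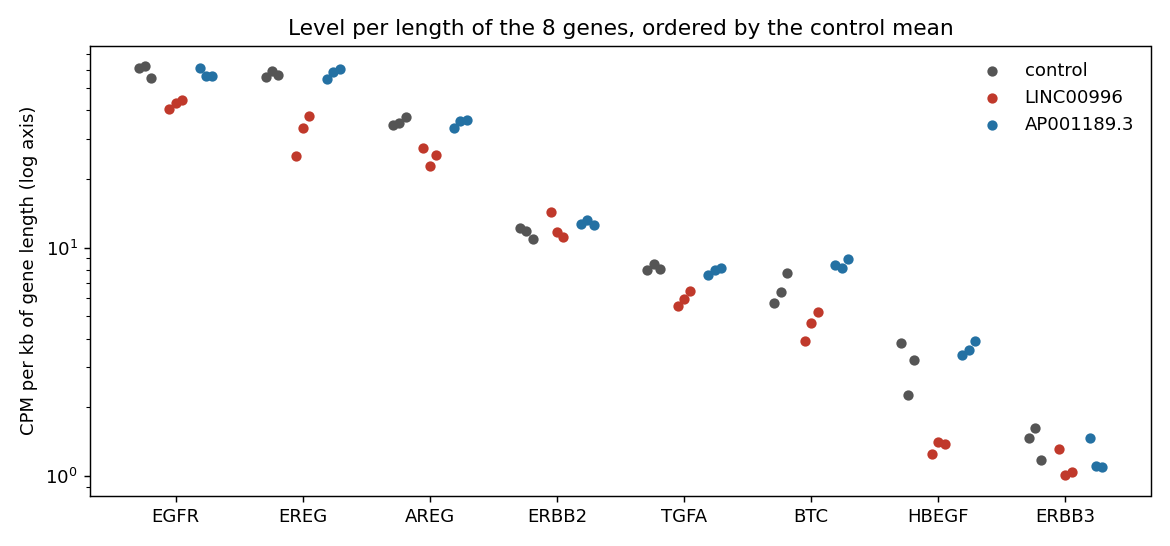
Level per length of each gene in each library, in CPM per kb on a log axis, with the genes ordered by their control mean. EGFR, EREG and AREG lie between 22.7 and 62.1 CPM per kb in every library and ERBB3 between 1.01 and 1.625, and the LINC00996 points lie below the others in 6 of the 8 genes.

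Summed per length, the 5 ligands came to 111 ± 2.96 (SD, n = 3) CPM per kb in control cells, 69.1 ± 6.57 in LINC00996 cells and 113 ± 5.25 in AP001189.3 cells. The 3 receptors came to 72.6 ± 4.56, 56.1 ± 0.506 and 72.2 ± 2.89 CPM per kb in the same order. The LINC00996 sums lay below those of the other groups in every library. EREG made up 51.7% of the ligand sum in control cells, 46.1% in LINC00996 cells and 51.3% in AP001189.3 cells, and its share in LINC00996 replicate 1 was 39.8%. EGFR made up 81.7% to 82.2% of the receptor sum in control libraries, 72.0% to 78.5% in LINC00996 libraries and 79.7% to 81.3% in AP001189.3 libraries. The share of ERBB2 was 16.1% in control cells, 22.1% in LINC00996 cells and 17.8% in AP001189.3 cells.

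Because EREG, AREG and BTC are neighbours, the genes that start within 500 kb of the AREG start were read from the same test. EREG starts at -79.99 kb from the AREG start, and the lower coordinate of BTC lies at 299.6 kb. EPGN, a further EGFR ligand at -136.7 kb, had 0 to 6 counts per library and was not tested. The chemokine genes CXCL3, CXCL2 and CXCL5, whose products attract neutrophils, were called lower with LINC00996. CXCL3 went from 159 ± 3.71 (SD) to 83.0 ± 10.5 CPM, with a log2 fold change of -0.94 (adjusted p = 8.47e-05). CXCL2 differed by -0.68 (adjusted p = 0.000227) and CXCL5 by -0.65 (adjusted p = 0.00023). PARM1, at the far end of the region, differed by -0.59 (adjusted p = 0.0103). PPBP and MTHFD2L were not called. With AP001189.3, CXCL2 was higher by 0.24 (adjusted p = 0.0022), and CXCL3, CXCL5 and PARM1 were not called.

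The gene patterns closest to 3 of the members were read by the root mean square difference of log2 CPM over the 9 libraries, each gene centred on its own mean, among 14627 genes. This was done for the members whose group means spanned at least 0.58 on the log2 scale, namely EREG, HBEGF and BTC. Closest to EREG were DNAJC15, a mitochondrial co-chaperone, at a difference of 0.0727, then ZC3H12C at 0.0796 and RND3 at 0.0801. The mean of DNAJC15 in LINC00996 cells was lower than in control cells by a log2 difference of -0.88. Closest to HBEGF were the transcription factor KLF4 at 0.164, the macrophage growth factor CSF1 at 0.166 and BIK, a pro-apoptotic BCL2 family member, at 0.178. Closest to BTC were CRYBG1 at 0.0983, the inflammatory caspase CASP4 at 0.104 and AF117829.1 at 0.113. Among the 8 members themselves EGFR and TGFA were the closest pair, at 0.0754. These genes were picked for their likeness, so their values are a description.

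Other genes of the pathway were read from 7 lists with 84 genes, of which 79 were tested. With LINC00996, 21 were called lower and 4 higher than in control cells, which is 31.6% of those tested against 22.3% of all genes, with a median log2 fold change of -0.16 against 0.01. Without LINC00996 replicate 1 the counts were 27 lower and 5 higher (5481 called over all genes), and they fell to 12, 11 and 14 genes in all without control replicate 1, 2 or 3, where the calls over all genes fell too, from 3588 to 2094, 1925 and 2162. With AP001189.3, 6 were called lower and 13 higher, which is 24.1% against 19.8% of all genes, with a median log2 fold change of 0.04. Over all genes 57.2% of the calls were higher there, against 68.4% of these pathway calls. The split of the pathway calls depended on the scaling. With library size alone it was 10 lower and 11 higher, and with a length offset 3 lower and 11 higher. The number called with AP001189.3 was 1 with all 9 libraries in 1 fit, 10 without control replicate 2, 10 without AP001189.3 replicate 2 and 11 without AP001189.3 replicate 3. The calls over all genes under these settings were 437, 1974, 1914 and 2230 in the same order, against 3180. LINC00996 against AP001189.3 gave 22 lower and 2 higher, which is 30.4% against 21.4%, and it gave 32 lower and 8 higher without LINC00996 replicate 1 and 15 called in all without AP001189.3 replicate 2, with 6828 and 1957 called over all genes, against 3452.

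Among the other ERBB ligands and ERBB4, 4 of 7 genes were tested, and their median log2 fold change was 0.02 in LINC00996 and 0.26 in AP001189.3 against control. NRG2, a neuregulin, was lower with LINC00996 (5.51 against 8.92 CPM, log2 fold change -0.70, adjusted p = 0.00829). With AP001189.3 NRG2 was at 11.1 CPM, a log2 fold change of 0.32 that was not called (adjusted p = 0.0888). NRG1, a ligand of ERBB3 and ERBB4 at 165 ± 4.74 (SD) CPM in control cells, had a log2 fold change of 0.02 with LINC00996 (adjusted p = 0.909) and 0.21 with AP001189.3 (adjusted p = 0.0124). NRG4 was near 1 CPM and was not called in either comparison. ERBB4 had 1 to 5 counts per library and NRG3 0 to 2, so that neither was tested.

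Of the 14 genes for ligand shedding and traffic, 6 were called lower and 2 higher with LINC00996, which is 57.1% against 22.3% of all genes, with a median log2 fold change of -0.34. RHBDF2, an inactive rhomboid protein that carries the protease ADAM17 to the cell surface, went from 191 to 95.5 CPM, a log2 fold change of -1.001 ± 0.0983 (SE; adjusted p = 3.33e-05). FRMD8, which binds and stabilizes RHBDF2 and its relative RHBDF1, had a log2 fold change of -0.63 (adjusted p = 0.00121). The other 6 called genes of the list are named here after their values were seen. The rhomboid genes RHBDL2 and RHBDF1 had log2 fold changes of -0.60 (adjusted p = 0.0204) and -0.57 (adjusted p = 0.00646), and the metalloprotease genes ADAM17 and ADAM10 of -0.45 (adjusted p = 0.014) and -0.37 (adjusted p = 0.035). CNIH1 was higher by 0.50 (adjusted p = 0.00609) and the metalloprotease gene ADAM9 by 0.45 (adjusted p = 0.00768). With AP001189.3, 3 of the 14 were called higher and 1 lower (28.6% against 19.8% of all genes), with a median of 0.10. RHBDF2 was higher there by 0.19 (adjusted p = 0.0158) and the metalloprotease ADAM15 by 0.27 (adjusted p = 0.000996).

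Of the receptor adaptors, which couple the phosphorylated receptors to downstream enzymes, 2 of 13 were called lower and 1 higher with LINC00996, a share of 23.1% near the 22.3% of all genes, with a median log2 fold change of -0.03. CRKL had a log2 fold change of -0.40 (adjusted p = 0.013), and SOS2, an exchange factor that activates RAS, one of -0.42 (adjusted p = 0.0225). SHC1 was higher with each plasmid, by 0.37 with LINC00996 (adjusted p = 0.0323) and 0.44 with AP001189.3 (adjusted p = 5.4e-07), and SOS2 was lower with AP001189.3 as well, with a log2 fold change of -0.24 (adjusted p = 0.00733). With AP001189.3, 2 of 13 were called lower and 1 higher (23.1% against 19.8% of all genes), with a median of 0.11.

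Of the receptor inhibitors and genes of receptor downregulation, 15 of 16 were tested, and 5 were called lower and none higher with LINC00996 (33.3% against 22.3% of all genes, of which 11.6% were called lower and 10.7% higher), where 7 were lower and 1 higher at an unadjusted p under 0.05 and DESeq2 called 5 lower and 1 higher. The median log2 fold change was -0.26. LRIG1, a membrane protein that lowers the level of ERBB receptors, went from 23.3 to 11.7 CPM, a log2 fold change of -1 ± 0.128 (SE; adjusted p = 0.000237). SH3KBP1, an adaptor of receptor endocytosis, had one of -0.67 (adjusted p = 0.000384). With AP001189.3, 2 were called higher and 2 lower (26.7% against 19.8% of all genes), with a median of -0.03. STUB1, a ubiquitin ligase, was higher by 0.48 (adjusted p = 0.00106), and CBLB, a ubiquitin ligase that acts on EGFR, had a log2 fold change of -0.38 (adjusted p = 0.00213). With LINC00996 both had the same direction but were not called, STUB1 at 0.66 (adjusted p = 0.051) and CBLB at -0.33 (adjusted p = 0.0917).

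In the RAS-MAPK core, 2 of 12 genes were called lower and 1 higher with LINC00996 (25% against 22.3% of all genes), with a median log2 fold change of -0.04. BRAF had a log2 fold change of -0.46 (adjusted p = 0.0273), MAP2K2 one of -0.43 (adjusted p = 0.0291) and HRAS one of 0.41 (adjusted p = 0.0405). With AP001189.3 edgeR called 2 of the 12 higher and 0 lower (16.7% against 19.8% of all genes), with a median of -0.03. DESeq2 called 0 of the 12 there, and 3 were higher and 3 lower at an unadjusted p under 0.05 in edgeR. HRAS was higher by 0.27 (adjusted p = 0.0235) and MAP2K1 by 0.16 (adjusted p = 0.0417). In the PI3K-AKT core edgeR called 0 of 11 genes with LINC00996, against 22.3% of all genes, and DESeq2 also called 0. At an unadjusted p under 0.05 in edgeR, 1 was higher and 1 lower, and the median log2 fold change was -0.10. AKT2, a kinase of the pathway, had a log2 fold change of 0.27 (adjusted p = 0.142). With AP001189.3, 3 of 11 were called higher and 1 lower (36.4% against 19.8% of all genes) with a median of -0.03, with AKT1 at 0.26 (adjusted p = 0.00161) and AKT2 at 0.21 (adjusted p = 0.00363).

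Of 10 genes known to rise with MAPK signalling, 5 were called lower and none higher with LINC00996 (50% against 22.3% of all genes, of which 11.6% were called lower), where 6 were lower and 1 higher at an unadjusted p under 0.05 and DESeq2 called 5 lower and 0 higher. Their median was -0.30 in LINC00996 and 0.12 in AP001189.3 against control on the log2 scale. SPRY4, an inhibitor of the pathway that is also induced by it, went from 31.5 to 18.5 CPM, a log2 fold change of -0.77 ± 0.114 (SE; adjusted p = 0.000652). EPHA2, a receptor tyrosine kinase, had one of -0.62 (adjusted p = 0.0028). CCND1, which encodes cyclin D1, had one of -0.30 with LINC00996 (adjusted p = 0.0274) and was higher by 0.18 with AP001189.3 (adjusted p = 0.0168), where it was the 1 gene of the 10 that was called, against 19.8% of all genes.

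**Figure D5:**
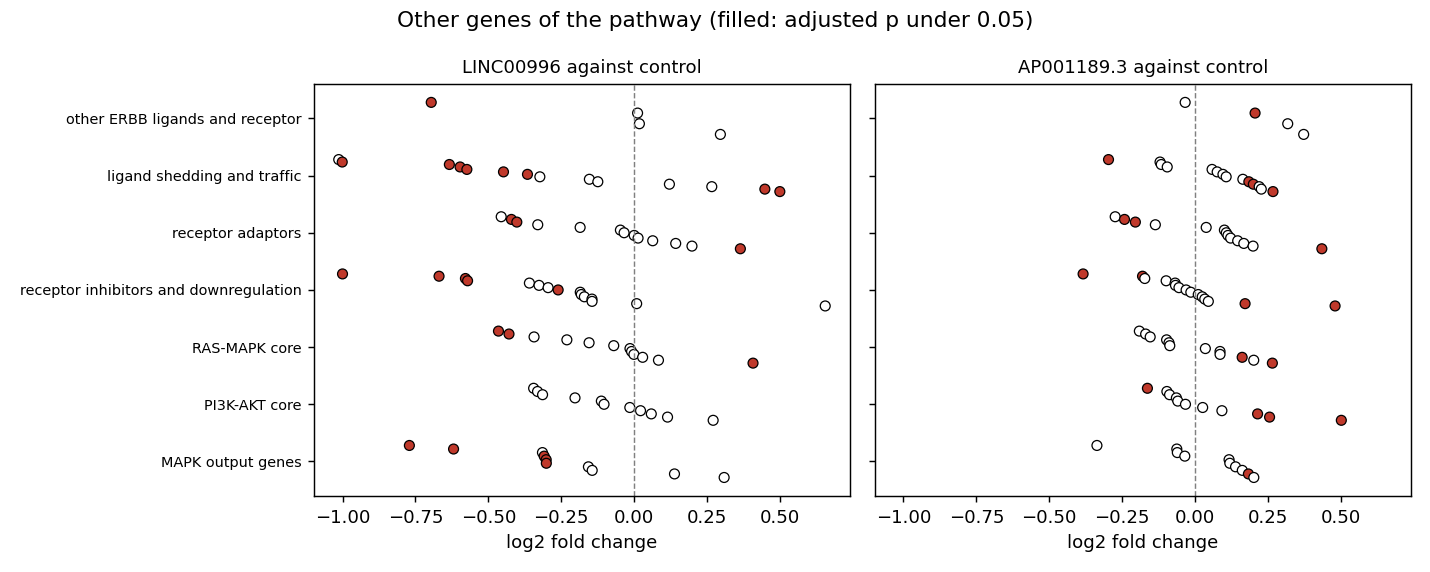
Log2 fold changes of the tested genes of 7 pathway lists against control, for LINC00996 on the left and AP001189.3 on the right. Each point is a gene, and filled points have an adjusted p under 0.05. With LINC00996 most filled points lie left of 0 (21 of 25), and with AP001189.3 more lie right of 0 (13 of 19). Over all genes 1866 of 3588 calls were lower with LINC00996, and 1819 of 3180 were higher with AP001189.3.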

How the data were processed

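RNA sequencing of 9 A549 libraries was analysed. According to the study's methods and its processing notes, mRNA was sequenced as paired reads of 150 bp, aligned by the authors with HISAT2 2.0.5 to GRCh38 and counted with featureCounts 1.5.0-p3. The deposited table holds raw counts of each gene, not normalized, beside FPKM values per library that the authors deposited too, which per the file headers refer to the same genes and were used for the order of levels alone. Gene coordinates equal those of GENCODE 29 for 58735 of 58735 genes. Libraries were grouped by the plasmid in their labels, and p-values measure the spread between these libraries, which may be technical in part.

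Each pair of groups was tested on its 6 libraries with edgeR 4.0.16 in R 4.3.3 (filterByExpr, TMM, robust quasi-likelihood test, Benjamini-Hochberg adjustment over all genes tested, adjusted p under 0.05). SE and 95% intervals come from that fit, and a prior count of 2 was added for log2 CPM. The script was tested on simulated data. DESeq2 1.42.0, other scalings and filters, thinning to the smallest library, offsets for gene length, a replicate block, 1 fit of all libraries and leaving out each library were alternatives, and an offset for GC content was added after the data were seen. The 8 genes, the pathway and marker lists and the tests were chosen with earlier results of these data known. By rule the text names the 8 genes, in each pathway list the 2 genes with the smallest adjusted p in each comparison with control (1 of them is not reported here), the called genes near AREG, and the 3 genes closest in pattern to each member whose group means span at least 0.58.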

Additional observations from a re-analysis of the deposited data

How the results depend on the processing

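The 8 genes had 360 alternative log2 fold changes in the 3 comparisons. Of these, 328 kept their direction and side of the threshold, 14 lost the call, 6 gained one and 12 changed sign, all 12 in genes that were not called. The number of the 8 genes called stayed at 6 to 7 with LINC00996 against control under changed processing and at 4 to 7 with 1 library left out (4 without control replicate 2 or LINC00996 replicate 2). For AP001189.3 against control, where 1 was called, it was 0 with all 9 libraries in 1 fit, 2 with the GC offset and 0 to 1 with 1 library left out, and for LINC00996 against AP001189.3 it was 5 to 7 with 1 library left out. The sign changes were as follows. In LINC00996 against control, ERBB2 was -0.027 without LINC00996 replicate 1 and up to 0.164 without replicate 3. In AP001189.3 against control, AREG was 0.0225 with the GC offset, 0.0176 without control replicate 3 and 0.015 without AP001189.3 replicate 1 (range -0.0454 to 0.0176 with 1 library left out). EREG was -0.00658 with library size alone, -0.00398 without control replicate 1 and -0.0162 without AP001189.3 replicate 3 (range up to 0.0594), and EGFR was 0.0296 with the length offset. In LINC00996 against AP001189.3, ERBB2 was 0.009 with library size alone, 0.0089 with the GC offset and -0.167 to 0.0167 with 1 library left out, and ERBB3 was -0.255 to 0.0249. Of all genes, 3588 were called with LINC00996 against control (6012 with the GC offset, 1925 to 5481 with 1 library left out), 3180 with AP001189.3 against control (437 with all 9 libraries in 1 fit, 1914 to 3598) and 3452 with LINC00996 against AP001189.3 (5787 with the GC offset, 1840 to 6828). Of the pathway genes, 25 were called with LINC00996 against control (44 with the GC offset, 11 to 32 with 1 library left out), 19 with AP001189.3 against control (1 with all 9 libraries in 1 fit, 10 to 22) and 24 with LINC00996 against AP001189.3 (45 with the GC offset, 15 to 40). With library size alone the median of all genes was 0.0824 in LINC00996 against AP001189.3, and the split of all calls turned from 1510 higher and 1942 lower to 2129 higher and 1667 lower. It turned likewise from 1722 higher and 1866 lower to 2006 and 1669 in LINC00996 against control, and from 1819 higher and 1361 lower to 1608 and 1719 in AP001189.3 against control. The cause of these changes was not tested, except that leaving out a library lowers the number of samples. Libraries with the same replicate number did not deviate together in every pair (correlations of -0.0204 to 0.149), so the numbers were not read as pairs, although 6 of 9 libraries were closest to one of the same number. With the number as a replicate block, 4500, 3466 and 3772 of all genes, 36, 22 and 25 pathway genes and 6, 1 and 6 of the 8 genes were called in the 3 comparisons. The 48 alternative levels per length, by library size alone or FPKM, each moved by less than 1 SD. Among the 8 genes the spread between replicates was below counting error for TGFA in control and AP001189.3 cells, BTC in AP001189.3 cells and HBEGF in LINC00996 and AP001189.3 cells, and above it in the other cases.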
